A study of Mus musculus with 16 samples.

Results

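Mouse embryonic fibroblasts were set against a common reference RNA on 16 two-colour arrays, which are all 16 arrays of the series. Mouse embryonic fibroblasts (MEFs, the term of the series title, which also speaks of Met mutations) are adherent cells grown out of dissociated embryos. WT cells were on 8 of these arrays and M833 cells on 8, and for either type the cell RNA was in the red dye Cy5 on 4 arrays and in the green dye Cy3 on 4. The labels give the cell type, the RNA type and the dyes. They do not name the strain, the age of the embryos, the passage, a treatment, the meaning of M833 or the make-up of the reference. Described here is what WT and M833 arrays share, as the mean log2 ratio of cells over reference with both cell types at equal weight. A log2 ratio of 1 is a 2-fold higher signal in the cells, and 0 is the level at which the deposited arrays were centred.

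Fibroblasts make and remodel the connective tissue matrix, and in culture they spread on a stiff surface, where they form bundles of actin and myosin anchored to the dish through integrins. Embryonic fibroblasts in addition keep expressing genes of fetal growth, several of which are imprinted, that is, expressed from the allele of a single parent. In a common reference design every sample is measured against the same RNA, so that a ratio depends on the reference as much as on the cells. A low ratio therefore does not show that a gene was silent in the cells, and in bulk RNA a smaller number of cells of a type cannot be told apart from less RNA per cell.

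The direction, cells over reference, is likely but no label states it. It rests on titles that name the cell type before the reference and on the low ratios of globin and albumin, which are thus no independent result. Values were available for 15247 probes, which gave 12761 features, with a gene name for 7114. The correlation of array pairs over all probes ran from r = 0.718 to 0.973 once 49 values above 8 on WT replicate 2 had been set missing, and from 0.591 with them kept. The medians of the arrays lay between -0.02 and 0.07. The arrays of WT fell into 2 sets that deviated together, replicates 1, 2, 5 and 6 and replicates 3, 4, 7 and 8. Between these sets the median size of the gap was 0.24 on the log2 scale over the 212 named genes, against 0.098 between the corresponding M833 arrays. No label says whether arrays came from separate cultures, so the p-values measure the spread between arrays, which may be technical, and they leave out any spread of the reference.

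The cells differed from the reference in most features. In limma with Benjamini-Hochberg adjustment, 5693 features (44.6%) were higher than the reference and 4911 (38.5%) were lower, but the median size of a called ratio was only 0.27, and 75.0% of the called ratios were under 0.5. A size was therefore asked for as well. A mean ratio at least 2-fold above the reference was found for 225 features (1.76%), of which 159 were named genes, and at least 2-fold below it for 709 features (5.56%), of which 518 were named. These shares of all features are the background for the counts in the gene lists below. The lists were chosen with earlier results of these data known, so their counts describe the chosen genes and test nothing. On every array 80 features were at or above 1 and 363 at or below -1. The low side also reached further, with 88 features at or below -3 against a single feature at or above 3, which was S100a6. The lowest mean ratio was -7.18, and of 29 features at or below -6 only 3 had a gene name.

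The 15 highest named genes included proteins of the cell cortex, the matrix and the cytoskeleton, a chromatin protein, detoxifying enzymes and a ubiquitin ligase. S100a6, a small calcium-binding protein abundant in fibroblasts, ranged on WT arrays from 3.56 through a median of 3.86 to 4.57 and on M833 arrays from 3.23 through 3.73 to 4.12. Its mean of 3.82 ± 0.042 (SE) was 14.1-fold above the reference, with an adjusted p of 4.53e-20 in limma, and both cell types overlapped. Tnc, the matrix protein tenascin-C, ranged from 2.03 through 2.81 to 3.66 in WT and from 2.28 through 2.54 to 2.94 in M833. The mean of Tnc was 2.68 ± 0.087 (SE), and its WT values were divided by set, with means of 2.33 and 3.27. Ahnak2, a giant scaffold protein of the cell cortex, had a mean of 2.56 ± 0.063 (SE), and every one of its 16 values was above 2. Hmga2, a chromatin protein of embryonic and proliferating cells, was measured by 3 probes and ranged from 2.04 through 2.25 to 2.48 in WT and from 2.35 through 2.58 to 2.72 in M833. Its mean was 2.40 ± 0.032 (SE), which is 5.29-fold. Anxa3, a calcium-dependent membrane-binding annexin, had a mean of 2.41 ± 0.086 (SE), with 1 low array, WT replicate 4 at 1.03. The others among the 15 highest were Ephx1 and Gsto1, which detoxify epoxides and transfer glutathione, Tes and Msn, which link membrane and actin, Fbln2 of the elastic matrix, the annexin Anxa1, the actin proteins Cald1, Myh9 and Capg, and Mdm2, the ligase that limits p53. Their means lay between 2.08 for Mdm2 and 2.38 for Ephx1, and Ephx1 did not overlap between the cell types, with 2.45 to 3.27 in WT and 1.62 to 2.18 in M833.

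**Figure D1:**
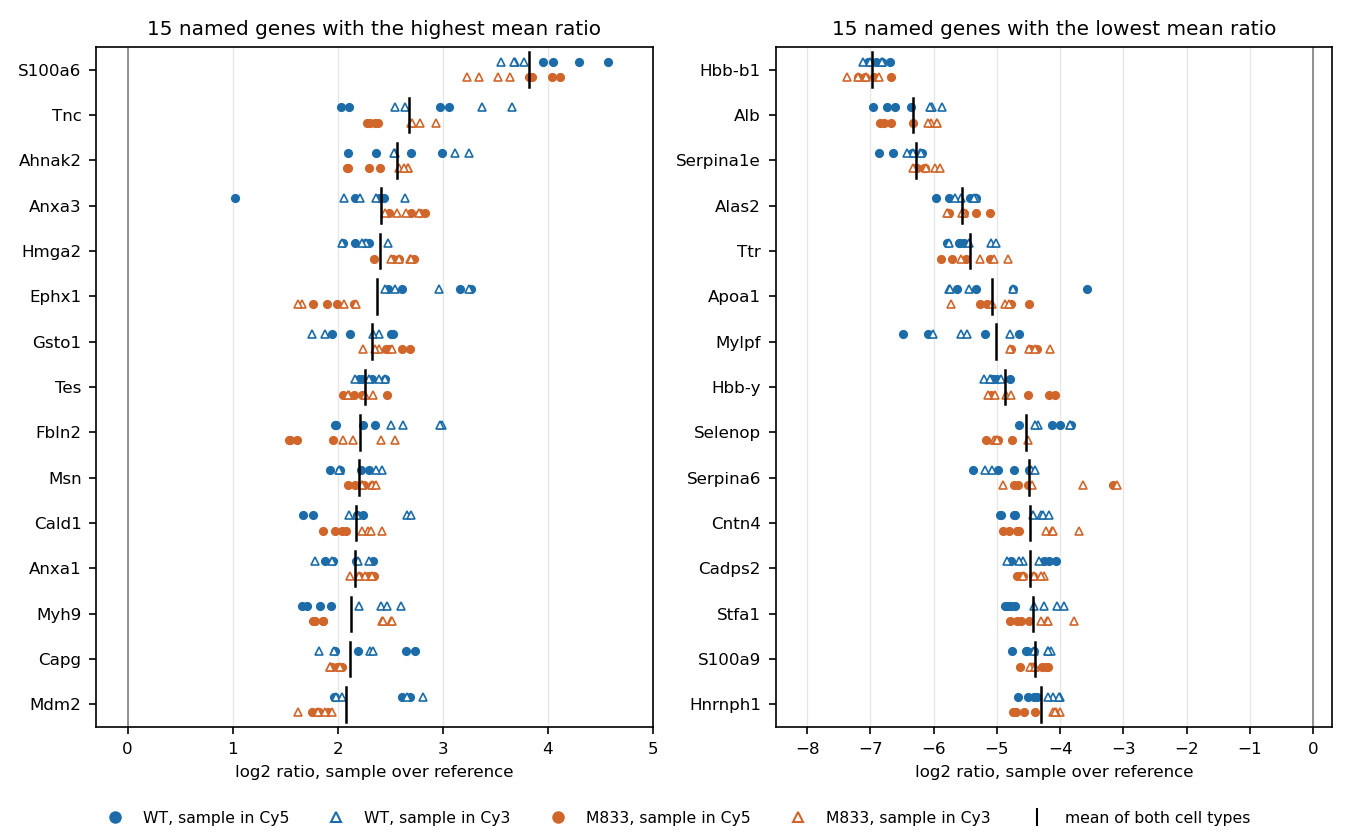
Log2 ratio of cells over reference on each of the 16 arrays for the 15 named genes with the highest (left) and the 15 with the lowest mean ratio (right). Circles are arrays with the cells in Cy5, triangles arrays with the cells in Cy3, and black bars the mean of both cell types. The mean of S100a6 lies at 3.82 and that of Hbb-b1 at -6.98, and WT replicate 4 stands apart for Anxa3 at 1.03.

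The list of actin and contractile genes lay mostly above the reference. Of 26 measured members 24 were higher and 2 lower, 9 of them at least 2-fold higher, with a median ratio of 0.78 beside a median of 0.04 over all features. The medians of this list on single arrays ran from 0.52 to 1.16 in WT and from 0.64 to 0.95 in M833. Cald1, which regulates actin and myosin, had a mean of 2.17 ± 0.050 (SE), and Myh9, the heavy chain of non-muscle myosin, of 2.12 ± 0.026. Cnn2, a calponin that stabilises actin filaments, ranged from 1.71 through 2.04 to 2.30 in WT and from 1.68 through 1.99 to 2.25 in M833, with a mean of 2.003. Actn1 (1.77) and Flna (1.02) cross-link filaments, and Myl9 (1.22) is a regulatory light chain. The 2 members below the reference were Tpm2, a tropomyosin, at -0.62 and Lasp1 at -0.35. Genes of smooth muscle were not high together: the smooth muscle list had 1 of 6 members higher and 4 lower, with Cnn1 at 0.57 and the myosin kinase Mylk at -1.77.

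Genes of adhesion to the matrix lay above the reference more often than below it. Of 14 members of the focal adhesion list 10 were higher (71.4%, against 44.6% of all features) and 2 lower (14.3%, against 38.5%). The median of the list was 0.72. Itgb5, an integrin chain that binds vitronectin, had a mean of 1.27 ± 0.024 (SE), and Vcl, vinculin, of 1.24 ± 0.046. Of the fibronectin receptor chains, Itga5 stood at 0.99, and Itgb1 averaged 0.99 over 2 probes that disagreed, at 0.0030 and 1.98. Below the reference were the collagen-binding chain Itga1 at -0.11 and Lims2 at -0.13, both small ratios. The annexin, S100 and galectin list had the highest median of the 38 lists, 1.16, with 10 of 13 members higher and 7 of them at least 2-fold. Besides S100a6, Ahnak2 and Anxa3 these were Anxa1 (2.16), Lgals1 (1.71), Anxa5 (1.67) and Anxa2 (1.16). S100a9, a neutrophil protein of the same family, was 21.0-fold lower, at -4.39.

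The promoters of these genes were searched for the CArG box, the DNA element bound by serum response factor, which is known to drive many actin genes. In the 250 bases before the start of the gene, the CArG box (CC, 6 bases that are each A or T, then GG) was present in 4 of 25 actin-list genes with a promoter in the RefSeq table (16%). These 4 were Actg1, Cnn2, Myl6 and Myl9. The box was present in 8 of 134 genes at least 2-fold above the reference (5.97%), in 8 of 386 at least 2-fold below it (2.07%), in 1.27% of the 5751 measured genes with a promoter and in 1.62% of all 27025 genes of the table. These shares are a description, and binding was not measured. The 8 higher genes were Gsto1, Cnn2, Fhl2, Pdgfc, Glipr2, Vcl, Myl9 and Ston1, of which Fhl2, Glipr2 and Ston1 were named after their values were seen. Among the other letters searched on both strands, TGANTCA (AP-1) was in 8.21% of the higher, 7.25% of the lower and 5.34% of measured genes. For TATAAA the shares were 16.4%, 10.9% and 8.26%, and for CATTCC (TEAD) 20.9%, 16.6% and 12.6%. In the actin list AP-1 was in 4 of 25 promoters (16%), as many as held the CArG box. TEAD was in 6 of the 25 (24%) and TATAAA in 3 (12%). The promoters printed here are in the build GRCm38.p6 from RefSeq and read 5′ to 3′ on the strand of the gene. They show, in capitals, where the box lies in Cnn2, Myl9 and Actg1 of the actin list and in Vcl of the focal adhesion list. The windows are chr10:79988350-79988599 (+ strand) for Cnn2, chr14:20929148-20929397 (+ strand) for Vcl, chr2:156775214-156775463 (+ strand) for Myl9 and chr11:120348496-120348745 (- strand) for Actg1. The ratios of these genes were 2.003, 1.24, 1.22 and 0.72, and the box began 56, 227, 161 and 90 bases before the start.
Cnn2: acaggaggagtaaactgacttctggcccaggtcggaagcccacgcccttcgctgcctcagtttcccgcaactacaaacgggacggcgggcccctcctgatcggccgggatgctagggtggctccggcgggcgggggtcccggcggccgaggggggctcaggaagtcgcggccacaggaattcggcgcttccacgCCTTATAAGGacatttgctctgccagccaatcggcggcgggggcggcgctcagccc
Vcl: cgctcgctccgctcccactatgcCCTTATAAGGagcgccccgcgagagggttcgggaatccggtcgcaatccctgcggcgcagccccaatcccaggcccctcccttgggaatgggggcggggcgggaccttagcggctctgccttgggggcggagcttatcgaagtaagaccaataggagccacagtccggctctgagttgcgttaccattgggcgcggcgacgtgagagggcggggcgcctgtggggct
Myl9: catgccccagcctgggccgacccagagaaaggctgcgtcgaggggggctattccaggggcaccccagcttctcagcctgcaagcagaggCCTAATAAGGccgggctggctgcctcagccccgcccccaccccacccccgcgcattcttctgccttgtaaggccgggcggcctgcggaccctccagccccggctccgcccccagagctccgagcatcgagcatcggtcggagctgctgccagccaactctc
Actg1: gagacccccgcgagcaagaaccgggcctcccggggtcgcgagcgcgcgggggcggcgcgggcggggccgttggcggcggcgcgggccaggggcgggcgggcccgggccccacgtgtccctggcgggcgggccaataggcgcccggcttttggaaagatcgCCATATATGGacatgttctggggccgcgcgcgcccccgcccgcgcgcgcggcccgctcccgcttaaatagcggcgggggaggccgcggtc

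Of 20 matrix glycoproteins and proteoglycans 8 were higher and 8 lower, shares near those of all features, with 4 at least 2-fold each way and with a median of 0.14. High were Tnc, Fbln2 at 2.22 ± 0.049 (SE), Fn1 (fibronectin) at 1.84 ± 0.032 and Bgn (biglycan) at 1.63 ± 0.045. Low were Dcn (decorin; 2 probes at -3.23 and -2.13) at -2.68 ± 0.073, Lum (lumican) at -2.49 ± 0.026, the microfibril protein Mfap4 at -1.87 and Hspg2 (perlecan) at -1.25. Biglycan, decorin and lumican are proteoglycans of one family of small leucine-rich proteins, and they lay on opposite sides on every array: Bgn ranged from 1.04 to 2.35, Dcn from -3.03 to -2.08 and Lum from -2.74 to -2.24.

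Of 12 collagen chains 4 were higher and 7 lower, 3 of them at least 2-fold, with a median of -0.24 that was 0.03 on WT arrays alone. The 3 measured chains of basement membrane collagen IV were higher, Col4a2 at 0.69, Col4a5 at 0.52 and Col4a1 at 0.30. Col1a1, the main chain of fibroblast collagen, ranged from -0.19 through -0.02 to 0.32 in WT and from -0.40 through -0.09 to 0.05 in M833. Its mean of -0.06 ± 0.021 (SE) was called (adjusted p = 0.0192 in limma), but it was above 0 with the cells in Cy3 (0.10) and on WT arrays alone (0.04). Col1a2 stood at -0.42, but its mean was 0.01 on WT arrays and -0.86 on M833 arrays. Col3a1 was at -1.10 and Col14a1, a chain on the surface of fibrils, at -2.72. The 4 probes of Col3a1 and the 3 probes of Col18a1 (-0.84) differed in sign. Col6a1, at -1.27, varied among the WT arrays: its mean was -0.14 in the set of replicates 1, 2, 5 and 6 and -2.06 in the other, against -1.64 and -1.23 in the M833 sets. Col5a2 had a mean of 0.90 that was -0.35 with the cells in Cy5 and 2.16 with the cells in Cy3, so its sign is not settled. The 8 genes of collagen folding and cross-linking were all higher, with a median of 0.57. Plod3, which hydroxylates lysines, was at 1.13 ± 0.014 (SE), Pcolce, which helps to trim procollagen, at 1.07 ± 0.029, and the chaperone Serpinh1 at 0.76 ± 0.025. Of 14 matrix proteases and inhibitors 11 were higher (78.6%, against 44.6% of all features). Among these were the inhibitor Timp2 at 1.48, the cathepsin Ctsl at 1.35 and tissue plasminogen activator, Plat, at 1.28.

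**Figure D2:**
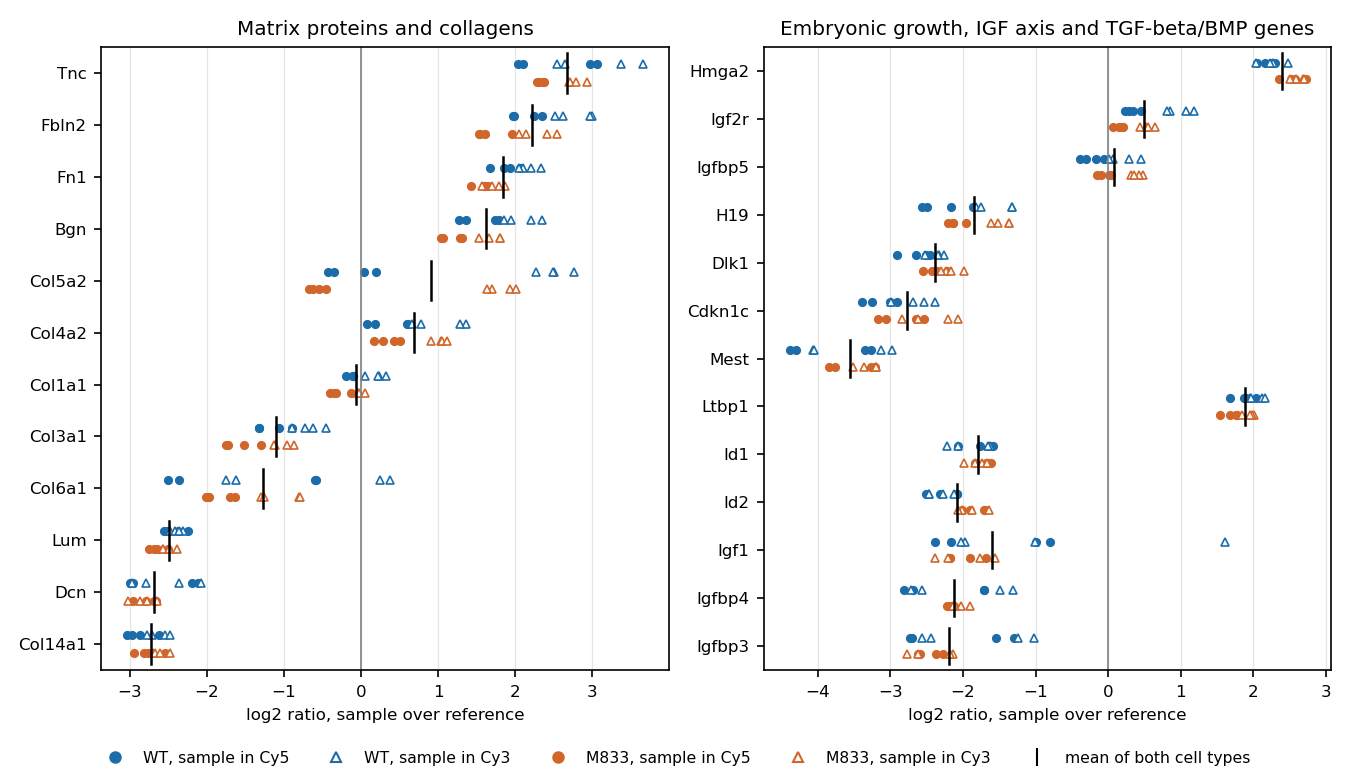
Log2 ratio of cells over reference on each array for matrix genes (left) and for genes of embryonic growth, the IGF axis and the TGF-beta and BMP pathway (right). Symbols mark cell type and dye, and black bars the mean. Bgn stays at or above 1.04 while Dcn and Lum stay at or below -2.08, Col5a2 splits by dye, and Igf1 has 1 array at 1.61.

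Genes of embryonic growth were more often low than high. Of 14 measured members 3 were higher, namely Hmga2, Igf2r (0.50) and Igf2bp1 (0.17), and 10 were lower, 6 of them at least 2-fold, with a median of -0.32. The 6 are imprinted genes. Mest, named for its expression in mesoderm, ranged from -4.39 through -3.70 to -2.98 in WT and from -3.85 through -3.32 to -3.20 in M833, and its mean of -3.56 ± 0.101 (SE) was 11.8-fold below the reference. Cdkn1c, a cell cycle inhibitor, had a mean of -2.77 ± 0.065 and Dlk1, an inhibitor of fat cell formation, of -2.39 ± 0.035. The non-coding RNA H19, over 7 probes, was at -1.85 ± 0.051, Plagl1 at -1.48 and Ndn at -1.20. Other imprinted genes on the same list had small ratios, with Igf2 at -0.33, Grb10 at -0.25 and Peg3, which did not pass the test, at -0.01, while Igf2r, above the reference, is the receptor that clears Igf2.

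In the IGF axis 2 of 4 measured binding proteins were at least 2-fold lower. Igfbp3, the main carrier of IGF in blood, had a mean of -2.19 ± 0.129 (SE) and Igfbp4, which holds IGF back, of -2.12 ± 0.105. Both differed between the WT sets, with -2.61 and -1.27 for Igfbp3 and -1.56 and -2.70 for Igfbp4, in opposite order. Igfbp5 was called at 0.08, with a sign that differed by dye, and Igfbp7 (0.07) did not pass the test. Igf1 was at -1.60 ± 0.219 (SE), with WT replicate 7 at 1.61 and the other 15 arrays between -2.38 and -0.80. Over all 9 genes 2 were higher (22.2%, against 44.6% of all features) and 5 lower (55.6%, against 38.5%). The median of -0.33 was -0.56 with the cells in Cy5 and -0.09 with the cells in Cy3.

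The TGF-beta and BMP pathway acts through receptors that switch on Smad proteins, and its 17 measured genes lay on both sides of the reference, 9 higher and 5 lower, shares near those of all features. Among the ligands and their binders, Ltbp1, which tethers latent TGF-beta in the matrix, was at 1.89 ± 0.027 (SE), Tgfb2 at 0.92 and Bmp4 at 0.47. Of the receptors, Bmpr1a was higher at 0.14, and Tgfbr2 (-0.18) and Tgfbr3 (-1.44) were lower. Tgfbr1 (-0.01) and Bmpr2 (-0.02) did not pass the test. The targets Id1, Id2 and Id3, inhibitors of differentiation that BMP signals turn on, were at -1.79, -2.08 and -0.54. Among 12 growth factors and cytokines, Pdgfc (1.87 ± 0.051 SE), the macrophage growth factor Csf1 (1.38 ± 0.068) and the chemokine Cxcl12 (1.33 ± 0.029) were at least 2-fold higher. Mdk, midkine, was at -2.59 ± 0.095 and did not overlap between the cell types, with -4.13 to -2.77 in WT and -1.90 to -1.56 in M833. Receptors and surface proteins of mesenchyme were mostly higher, 8 of 12 (66.7%, against 44.6% of all features). These included Axl (1.52), Pdgfrb (1.08), Vim (0.95) and Pdgfra (0.15), while Cd34 was at -1.87.

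Genes that every cell uses had smaller ratios, and they differed by pathway. Of 57 measured genes of the respiratory chain and ATP synthase 53 were lower and 3 higher, with a median of -0.57 and medians on single arrays between -0.74 and -0.40. The ratio was low in each complex, with medians of -0.63 over 22 genes of complex I, -0.62 over 3 of complex II, -0.66 over 5 of complex III, -0.37 over 10 of complex IV and -0.57 over 16 of ATP synthase. Atp5a1, a subunit of the catalytic part, ranged from -1.23 to -0.71 in WT and from -1.35 to -0.79 in M833, with a mean of -1.01 ± 0.015 (SE). Proteasome genes lay the other way, with 30 of 33 higher and 1 lower, a median of 0.26 and Psmd2, of the regulatory cap, at 0.70 ± 0.015. The 1 lower member was Psmb11, the thymus-specific subunit, at -0.12. Ribosomal protein genes, 30 higher and 22 lower of 72, had a median of 0.02, near that of all features. A difference between dye orientations was called for 59 of these 72, against 41.5% of all features. It was also called for 47 of the 57 respiratory and 23 of the 33 proteasome genes. Neither the proteasome nor the ribosomal list had a member at least 2-fold from the reference.

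Of 17 glycolysis genes 2 were higher and 13 lower, 5 of them at least 2-fold. The enzyme Tpi1, which interconverts triose phosphates, was at -1.11. Pkm, the pyruvate kinase of dividing cells and muscle, was at 0.81 ± 0.030 (SE). Aldoc, the aldolase of brain, was at -2.20 and Pfkm, the phosphofructokinase of muscle, at -1.92, while Aldoa (0.15) and Pfkl (0.09) did not pass the test. The lactate carrier Slc16a1 was at -1.93 and Pdk1, which restrains entry of pyruvate into mitochondria, at -1.76 ± 0.023. Antioxidant and detoxifying enzymes were divided as well, with 7 of 24 higher and 13 lower. Ephx1, Gsto1 and Txnrd1 (1.12) were high, and catalase (Cat, -1.60), the secreted peroxidase Gpx3 (-2.55) and the microsomal transferases Mgst1 and Mgst3 (both -1.45) were low.

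Cell cycle genes did not move as a group. Of 46 genes 15 were higher (32.6%, against 44.6% of all features) and 23 lower (50%, against 38.5%), with a median of -0.12. On single arrays the median of the list ran from -0.62 to -0.01 in WT and from -0.08 to 0.16 in M833. Ccnd2, a D-type cyclin measured by 5 probes, was at 1.19 ± 0.040 (SE) and Ccnd3, another, at -0.95 ± 0.050. Of 6 subunits of the MCM helicase, which opens DNA for replication, 5 were lower, with Mcm3 at -0.78 and Mcm5 at -0.75, and Mcm4 was higher at 0.21. Of 24 genes of the response to amino acid shortage and unfolded protein 18 were higher, with Trib3 at 1.27 ± 0.062, Phgdh at 0.92 and the glycyl-tRNA ligase Gars at 0.75. The 4 measured tRNA ligases of that list were all higher, between 0.40 and 0.75. Nupr1, a stress-induced nuclear protein, was at 1.43 and did not overlap between cell types, with 1.45 to 2.58 in WT and 0.41 to 1.29 in M833.

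Most of the 15 lowest named genes are known from other organs, while 26 of the 29 features at or below -6 have no gene name. Hbb-b1, adult beta globin, ranged from -7.11 through -6.87 to -6.70 in WT and from -7.38 through -7.08 to -6.67 in M833, and its mean of -6.98 ± 0.043 (SE) was 126-fold below the reference (adjusted p = 1.39e-23 in limma). Alb, the serum albumin of liver, ranged from -6.96 through -6.20 to -5.87 in WT and from -6.84 through -6.20 to -5.94 in M833, with a mean of -6.33 ± 0.041. Serpina1e (-6.27), Ttr (-5.42) and Apoa1 (-5.07), secreted by liver or yolk sac, and Alas2 (-5.55), which starts haem synthesis in red cell precursors, followed. Mylpf, a light chain of fast muscle, was at -5.01 ± 0.114. It ranged from -6.49 to -4.65 in WT and from -4.79 to -4.16 in M833, so the cell types overlapped. Hbb-y, an embryonic globin, was at -4.87 ± 0.063 over 4 probes. Among the 15 lowest, Hnrnph1 (-4.31 ± 0.028) is a general splicing factor, and the other 42 splicing factors lay between -0.92 and 0.26. Hnrnph1, Cntn4 (-4.48) and Cadps2 (-4.47) rest on 1 probe each of an old annotation.

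For albumin the 250 bases before the start, at chr5:90460620-90460869 (+ strand) in GRCm38.p6 from RefSeq, are shown because they hold a match to the start of the site of HNF1, a liver factor, 32 bases before the start. The letters searched were GTTAATNAT on both strands, shown in capitals. They were in 1 of 11 liver-list promoters, in 0 of 134 genes at least 2-fold above the reference, in 6 of 386 at least 2-fold below it (1.55%), in 0.435% of measured genes and in 0.866% of all promoters.
Alb: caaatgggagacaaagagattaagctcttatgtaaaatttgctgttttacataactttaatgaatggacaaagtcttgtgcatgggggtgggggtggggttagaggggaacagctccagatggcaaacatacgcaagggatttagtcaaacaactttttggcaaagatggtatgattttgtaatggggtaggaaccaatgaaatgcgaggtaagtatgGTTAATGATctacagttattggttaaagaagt

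Markers of other cell types were low in nearly every list. Of 121 measured genes in lists of blood, vessel, epithelial, nerve, muscle, skeletal, fat and organ cells 107 were lower and 10 higher, with 75 at least 2-fold lower and 1 at least 2-fold higher. All 14 liver genes were lower, 11 of them at least 2-fold, and 15 of 16 red cell genes. Of 27 epithelial genes 25 were lower and 24 at least 2-fold lower, with the keratin Krt8 at -3.01 ± 0.045 (SE; probes from -3.94 to -2.07), Epcam at -2.64 ± 0.160 and Cdh1 (E-cadherin) at -2.61 ± 0.045. The epithelial exception at least 2-fold higher was Pkp2, a plakophilin, at 1.02. On 15 arrays Epcam lay between -3.21 and -2.47, and on M833 replicate 7 at -0.21. All 6 endothelial genes were lower, with Pecam1 at -2.63 ± 0.053, and 11 of 14 brain genes, with Stmn3 at -3.98. Cartilage collagen Col2a1 was at -3.41, the mineralising phosphatase Alpl at -2.79 and Lpl, lipoprotein lipase of fat and muscle, at -2.97.

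Myeloid genes were lower too, 12 of 13, but unequally in the cell types. The median of the list was -0.95, and on single arrays it ran from -0.57 to -0.43 in WT and from -1.52 to -0.99 in M833. Lyz2, lysozyme of macrophages, ranged from -1.04 through -0.31 to 0.28 in WT and from -2.44 through -1.91 to -1.65 in M833, and on WT arrays alone it did not pass the test. C1qa, of complement, ranged from -1.05 to -0.26 in WT and from -2.002 to -1.38 in M833, and Lcp1, an actin bundler of white cells, from -1.23 to -0.94 and from -2.11 to -1.56. C1qb, also of complement, was counted as lower at -0.59, but its mean was 0.14 on WT arrays and -1.31 on M833 arrays. Germ cell, yolk sac and placenta genes, by contrast, lay near 0, with a median of 0.08 over 20 genes. There 12 were higher and 4 lower, and the only one at least 2-fold from the reference was Ceacam9 at 1.70 ± 0.038 (SE).

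**Figure D3:**
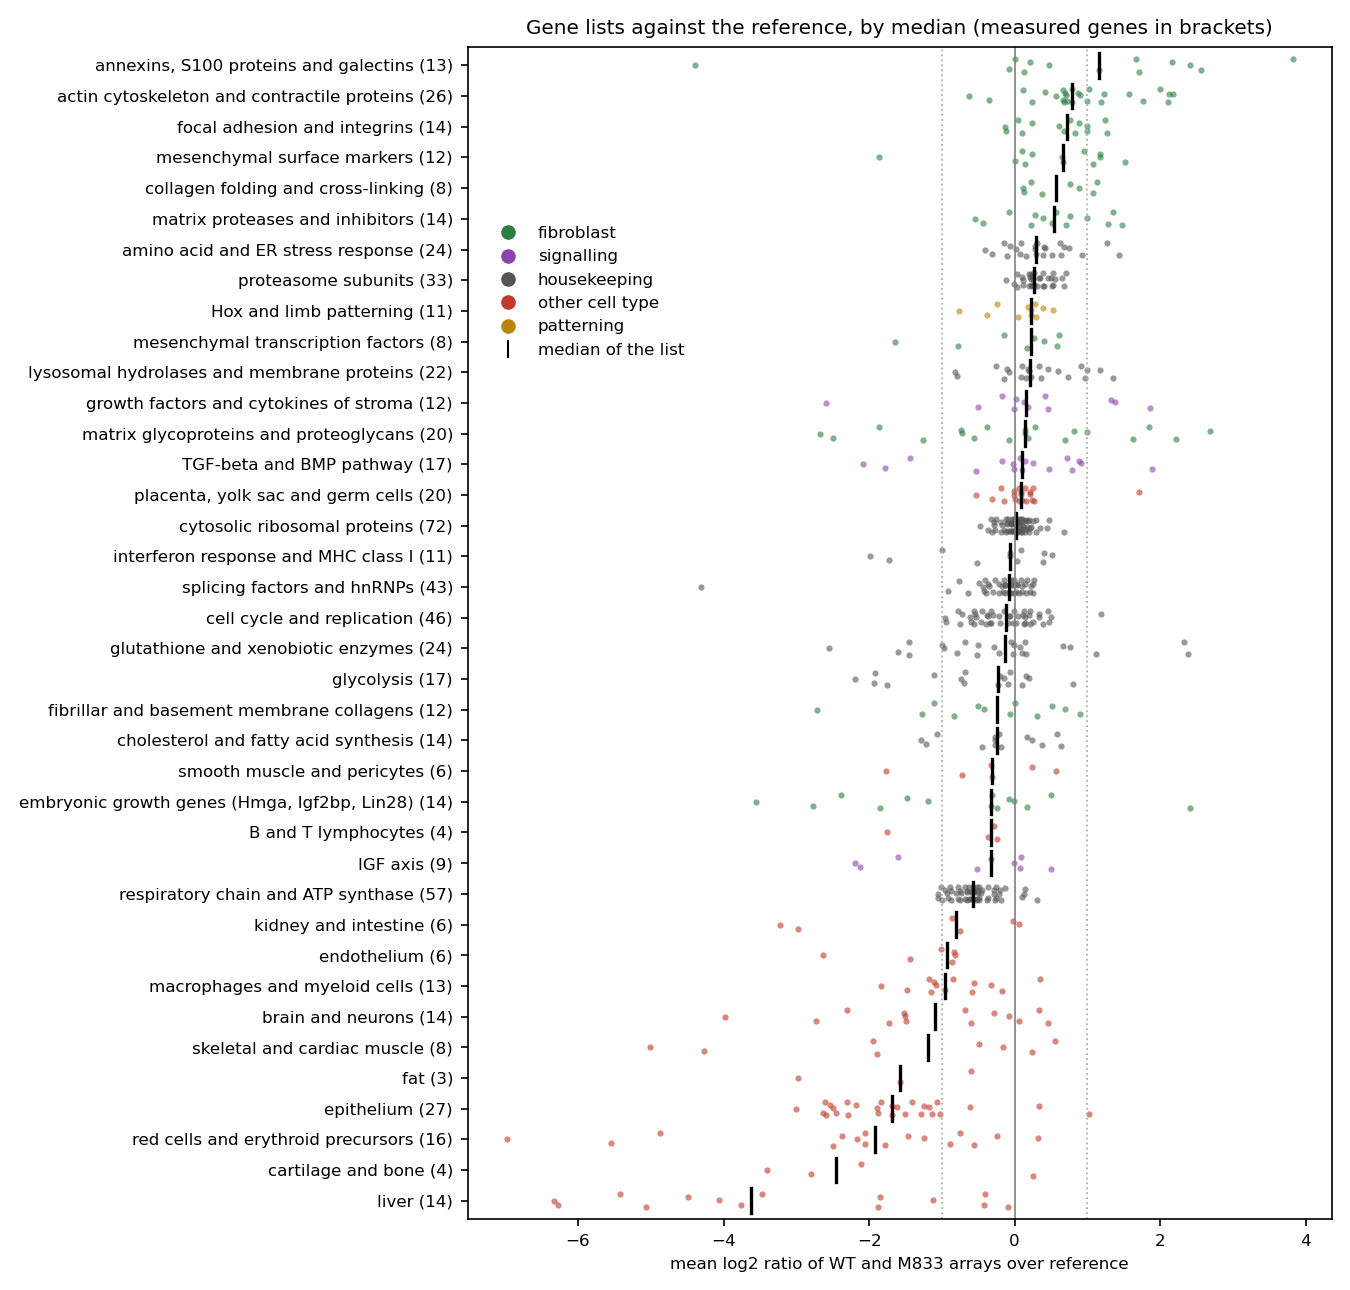
Mean log2 ratio of cells over reference for the measured genes of 38 lists, ordered by the median of the list (black bar). Each point is a gene and its colour the kind of list, and dotted lines mark a 2-fold ratio. Annexins and actin genes lie at the top with medians of 1.16 and 0.78, respiratory chain genes at -0.57 and liver genes at the bottom at -3.62.

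Of 15 fibroblast markers 12 were measured. S100a6, Tnc, Ahnak2, Fbln2, Anxa3 and Hmga2 were chosen with their high ratios in these data known, and they check nothing. Of the other 6, Vim, Pdgfrb and Pdgfra (0.15) were higher than the reference and Col1a1, Col1a2 and Col3a1 lower, so these markers do not settle the label either way. On WT arrays alone the means of Col1a1 (0.04) and Col1a2 (0.01) were not below the reference. Thy1, Twist1 and Prrx1 had no value here. Of the transcription factors of mesenchyme, Fosl2 (0.62) and Fosl1 (0.40) were higher, and Klf4 (-0.78) and Tcf21 (-1.65) were lower. Of 11 Hox and limb patterning genes 7 were higher (63.6%, against 44.6% of all features), at most 0.52 for Hoxb3. Lower were 3 (27.3%, against 38.5%), and none was at least 2-fold from the reference.

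Swapping the dyes did not turn any ratio of at least 2-fold. The difference between dye orientations was called for 5291 features (41.5%), with a median size of 0.12 over all features, and it was at least 1 in 42 features. The design has both orientations equally in each cell type, so the mean balances this effect. Among the named genes 82 differed by dye. The gap was largest for Col5a2, which ranged from -0.67 to 0.20 with the cells in Cy5 and from 1.63 to 2.77 with the cells in Cy3. Pdgfrb was at 0.70 and 1.46, Axl at 1.17 and 1.88 and Col9a3 at -2.60 and -1.62 in the same order, while S100a6 was higher with the cells in Cy5 (4.09 against 3.55). Pou5f1, a pluripotency factor, was at 0.67 with the cells in Cy5 and at -0.14 with the cells in Cy3.

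**Figure D4:**
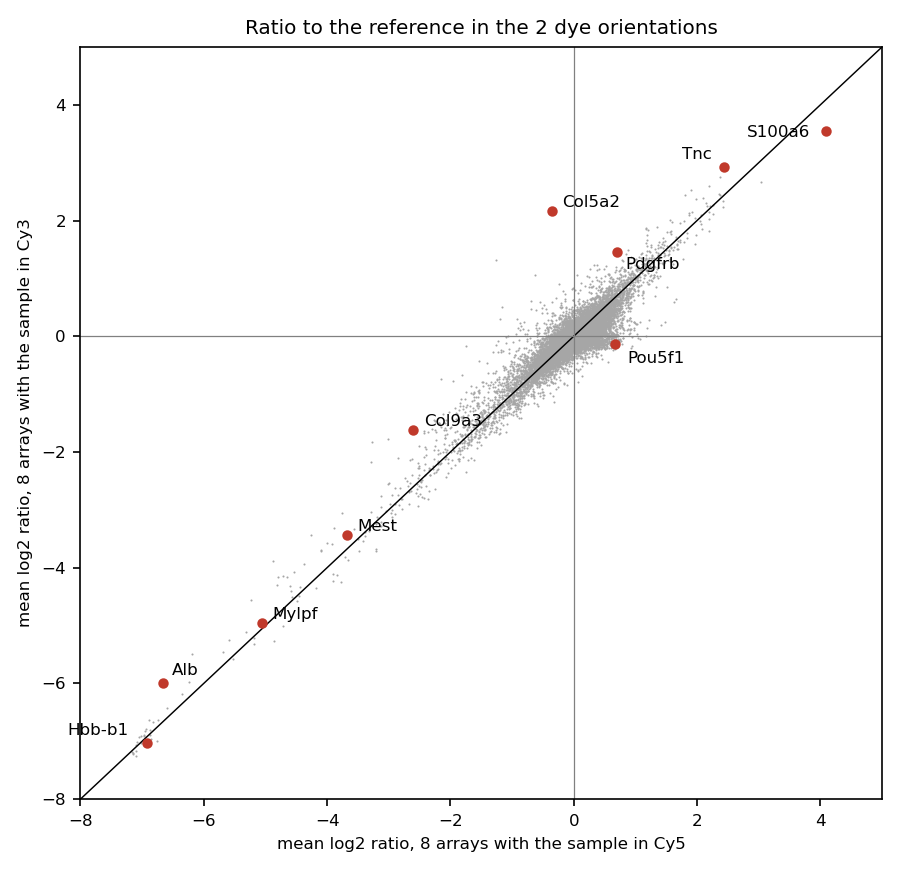
Mean log2 ratio of each feature over the 8 arrays with the cells in Cy5 (x axis) and the 8 with the cells in Cy3 (y axis), with the line of equal values. Named genes are in red. Most features lie near the line from Hbb-b1 at -6.98 to S100a6 at 3.82, and Col5a2 lies off it with -0.35 against 2.16.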

How the data were processed

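Per the labels' protocols, total RNA came from a Trizol extraction and took up Cy dyes during reverse transcription. The deposited log2 ratios had been normalised by the authors with limma, per the submitters' processing notes, which give no version. The log2 scale was read from the range of the values. No source used here describes the background correction, normalisation method or filters, and 0 is set by that normalisation. Channel intensities were not used here, so dim probes could not be left out, and the number of arrays (16) limits the precision.

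Arrays were grouped by their titles and numbered in series order. On WT replicate 2, 49 values above 8 were set missing, 40 after averaging, and the fit left those out. Of 15247 probes 9600 had 1 gene symbol in the platform annotation, 214 several and 5433 none. Through Entrez numbers 9492 of the first matched the RefSeq gene table, with 0 symbols altered. For 1810 genes several probes were averaged. The mean of both cell types, with cell type and dye centred, was tested against 0 in limma 3.58.1 (R 4.3.3), two-sided, with Benjamini-Hochberg adjusted p-values over 12761 features, called under 0.05. Errors are SEs of that mean. The fit was tested on simulated data. The members and lists were chosen with earlier results of these data known, and genes that share only a prefix with a family, or belong to another list's cells, were taken out after the files were seen. Named were the marker genes, the 15 highest and 15 lowest ratios, and per list up to 4 called members in the direction of its median and 2 against it. Other list members named in the text were picked after their values were seen. The promoters, for 5751 of 7114 named genes, come from RefSeq (GRCm38.p6). Alternatives changed the centring, scaling, dye term, weights, moderation, extreme values, arrays and sets.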

Additional observations from a re-analysis of the deposited data

Results flagged for a closer look

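In 19 of 424 groups of 8 arrays of a named gene, 1 array lay farther from the rest than Dixon's limit, after adjustment for dye. Chance gives about 1 in 20 groups. The widest were Epcam on M833 replicate 7, at -0.26 with the nearest other array at -2.42, Nefl on WT replicate 1, at 0.67 against -2.56, and Igf1 on WT replicate 7, at 1.43 against -0.62. Anxa3 was at 1.08 on WT replicate 4 against 2.01, and Esam at -0.62 on M833 replicate 2 against -1.25. On M833 replicate 5, Aldoc was at -1.15 against -2.02, Lpl at -2.55 against -3.10 and Pfkm at -1.77 against -1.93. On WT replicate 1 Lpl was at -1.995 against -2.66. On WT replicate 2 Irf1 was at 0.16 against 0.55 and Gtsf1 at 0.65 against 0.36. Podxl was at -2.40 on WT replicate 8 against -2.92, and Cntn4 at -4.02 on M833 replicate 8 against -4.34. Alb was at -5.99 on M833 replicate 3 against -6.27, and Lcp1 at -1.63 on M833 replicate 1 against -1.85. On M833 replicate 4 Col18a1 was at -0.74 against -0.93 and Atp5a1 at -1.14 against -1.03. Rpl28 was at -0.60 on M833 replicate 2 against -0.52, and Ndufs7 at -0.96 on WT replicate 3 against -1.02. The cause of these values was not tested.

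Among the 212 genes named by rule, 6 differed between the cell types in their ratio to the reference. The difference exceeded 0.5 on the log2 scale in limma's test of that size. The M833 minus WT difference was -1.67 for Lyz2, -1.20 for Nupr1, -1.17 for C1qa, -0.86 for Lcp1, -0.73 for Cst3 and 1.63 for Mdk. In each of the 6, the 8 values of a cell type did not overlap the 8 of the other. This was not particular to the 6, which were picked for a large difference. Itgb5, for example, did not overlap either, with 1.32 to 1.89 in WT and 0.69 to 1.18 in M833. The share of features without overlap was not counted. Genes outside the rule were not looked up in limma's test of the difference. Among these, C1qb had means of 0.14 in WT and -1.31 in M833, and Col1a2 of 0.01 and -0.86.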

How the results depend on the processing

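Across the alternatives that test features, the count higher than the reference ran from 4473 to 5899, of lower ones from 4032 to 5112, at least 2-fold higher from 165 to 284 and at least 2-fold lower from 573 to 745. With each of the 15247 probes tested by itself the counts were 6797, 5884, 290 and 863 probes. Of the 934 features at least 2-fold from the reference, between 836 (M833 arrays alone) and 934 kept their call, at least 919 without any single array, and 0 changed sign. With the sets of arrays as a random block (correlation 0.32), 933 kept it. Of 6148 values of named genes under 29 alternatives 6097 kept direction and call, 42 lost the call and 9 changed sign. With the cells in Cy5 only these were Col5a2 (-0.35) and Igfbp5 (-0.14). With the cells in Cy3 only they were Pou5f1 (-0.14), Atp5g3 (-0.027), Col1a1 (0.10) and Itga1 (0.021). On WT arrays alone they were Igfbp5 (-0.012), Col1a1 (0.039) and Itga1 (0.016). Igfbp5 (0.08) also lost its call without any of WT replicates 1, 5 and 6 or M833 replicates 1, 3 and 5, and Lyz2 and Cst3 lost theirs on WT arrays alone (-0.32 and -0.07). The cause was not tested. Of 1102 medians of lists 20 moved by more than the SD over arrays. No paired analysis was possible because the labels give the arrays no replicate numbers.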
